A study of Mus musculus with 44 samples.

Results

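The Hox cluster genes were taken as every gene of the organoid count table whose symbol is Hox, a cluster letter from a to d and a number. The rule gave 39 of 19733 gene symbols: 11 in HoxA (chr6:52155367-52260880), 10 in HoxB (chr11:96194316-96368254), 9 in HoxC (chr15:102921131-103036856) and 9 in HoxD (chr2:74668225-74765142), with spans from the RefSeq table of mouse build GRCm38.p6. Hox genes encode homeodomain transcription factors that give cells their position along the head-to-tail axis, and the order of the genes in a cluster follows the order of the body regions in which they act. Low numbers (paralog groups 1 to 3, here anterior) act towards the head, groups 4 to 8 are called central and groups 9 to 13 posterior. In the gut the mesenchyme carries most of this code, while the endoderm carries part of it, and Cdx proteins are known upstream regulators of Hox genes in the embryo.

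The series holds 44 mouse samples of strain C57BL/6, of which the 20 RNA-seq libraries of cultured organoids are described. They form a pair of experiments that were kept separate. In the first, gastric organoid lines were transduced by lentivirus with GFP, a neutral product (3 libraries), or with the intestinal transcription factors HNF4A (3) or CDX2 (3), and small intestine organoids without a named transgene were added (2). In the second, all 9 libraries are stomach antrum organoids that overexpress HNF4A, with the enhancer 3′ of Cdx2 intact (wild type, 3) or deleted on 1 allele (heterozygous, 3) or on both alleles (homozygous, 3) by CRISPR-Cas9 in the mouse germline. The labels do not say how many animals, clones or transductions stand behind the numbered libraries, so p-values measure the spread between these libraries, which may be technical. Values are raw read counts, and CPM, which are counts scaled by library size with edgeR's TMM factors. Neither is corrected for gene length, so values are compared between libraries and not between genes.

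Total counts ran from 6180498 to 11465309 per library, so that 3 reads, the upper limit that a count of 0 allows, corresponded to 0.256 to 0.473 CPM. Epithelial markers were present in every library, with 6 genes summing to between 3812 CPM and 15501 CPM, and 8 gastric markers summed to 86.4 to 7222 CPM in the gastric lines, where a label field reads small intestine, but to 0.931 and 10.1 CPM in the small intestine organoids. Cdx2, next to the deleted enhancer, was at 16.7, 26.8 and 58.5 CPM in the wild-type libraries, 18.4, 5.55 and 9.31 CPM in the heterozygous ones and 0.199, 1.36 and 0.585 CPM in the homozygous ones. All 6 deletion libraries also held transcripts that were nearly missing elsewhere: Wnt3a, a secreted ligand, was at 175, 1809 and 3099 CPM in heterozygous replicates 1, 2 and 3 and at 95.1, 196 and 2053 CPM in homozygous replicates 1, 2 and 3, against at most 4.33 CPM in wild type and 0 reads in the 11 libraries of the first experiment. The 3 libraries highest in Wnt3a, heterozygous 2 and 3 and homozygous 3, stand apart from the others. They were also the 3 highest in summed Hox CPM, at 201, 341 and 265 CPM against at most 23.6 CPM in the other deletion libraries. The Hox results of the deletion experiment are given with and without them.

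Hox reads were scarce in most organoids. The 39 genes together had 1, 0 and 10 reads in GFP replicates 1, 2 and 3, 3, 4 and 5 reads in the HNF4A lines, 1, 3 and 3 reads in the CDX2 lines, and 10, 0 and 5 reads in the HNF4A-overexpressing organoids with an intact enhancer. Against these stood 118 and 109 reads in the small intestine organoids, 225, 2356 and 3001 in the heterozygous libraries and 91, 240 and 2264 in the homozygous libraries. The summed level was 0.444 ± 0.679 CPM in GFP, 0.494 ± 0.170 CPM in HNF4A and 0.312 ± 0.191 CPM in CDX2 lines (SD, n = 3 each), 11.5 ± 0.687 CPM in small intestine organoids (SD, n = 2), and 0.512 ± 0.462 CPM, 188 ± 159 CPM and 99.2 ± 144 CPM in wild-type, heterozygous and homozygous antrum organoids (SD, n = 3 each). The small intestine and all 6 deletion libraries lay above every other library of their own experiment. In these bulk samples, fewer cells of a type and less RNA per cell cannot be told apart.

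**Figure D1:**
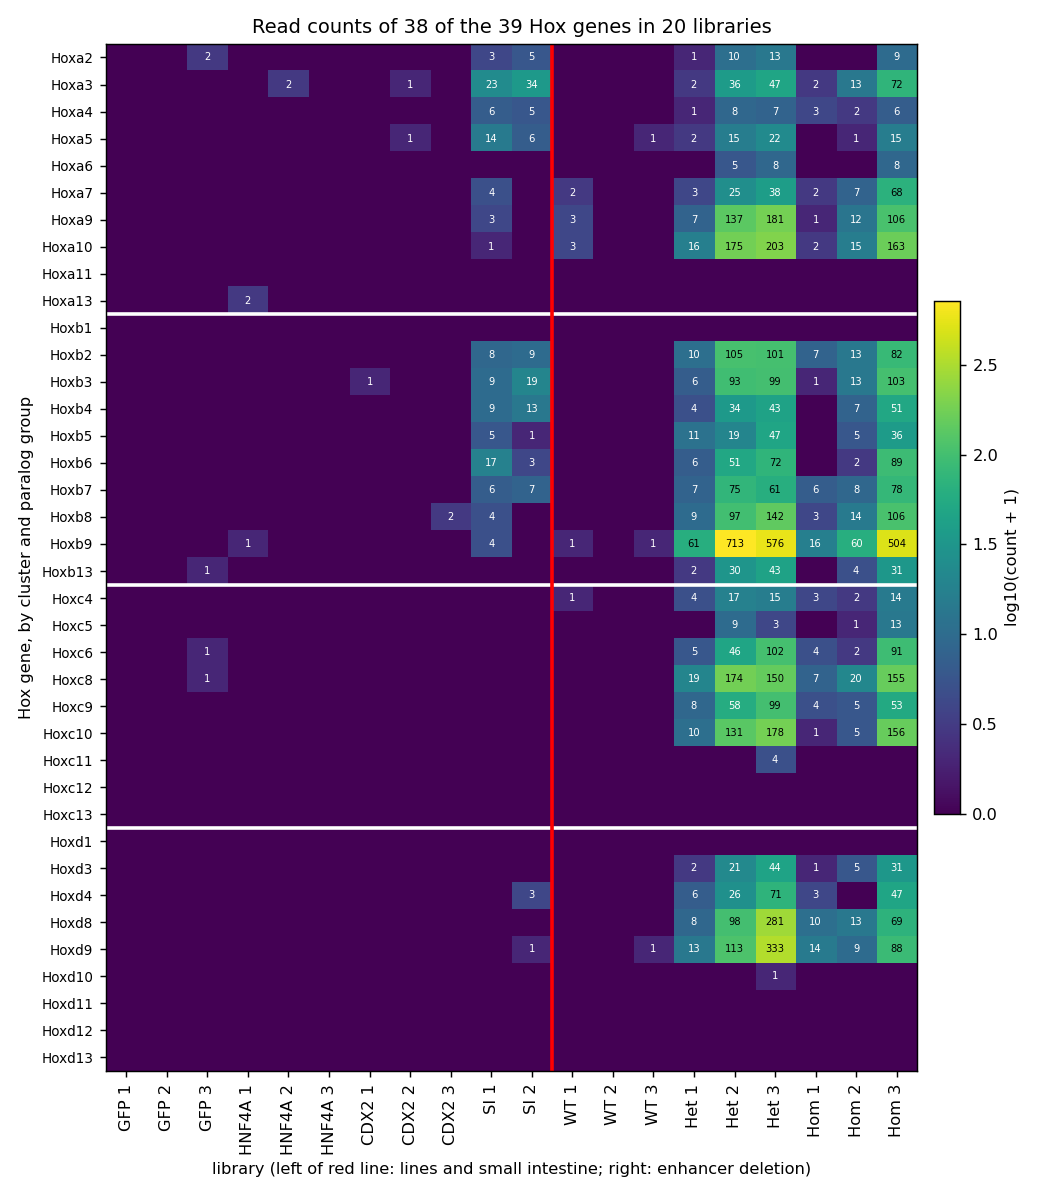
Read counts of 38 of the 39 Hox genes (rows, by cluster and paralog group) in 20 libraries (columns; SI, small intestine; WT, Het and Hom, wild type, heterozygous and homozygous for the enhancer deletion), with colour as log10(count + 1) and the count printed where it is above 0. The gastric lines hold at most 2 reads of any Hox gene drawn, the small intestine reads lie in HoxA and HoxB but for 4, and the deletion libraries have reads in all 4 clusters up to paralog group 9 or 10, though none of Hoxb1 or Hoxd1, with Hoxb13 and single libraries of Hoxc11 and Hoxd10 beyond.

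The genes are accounted for as follows. Hoxb1, Hoxd1, Hoxa11, Hoxd11, Hoxc12, Hoxd12, Hoxc13 and Hoxd13 had 0 reads in all 20 libraries. In the first experiment 17 genes had no read, and 1 gene, Hoxa3, passed the filter on low counts among 12720 genes. In the deletion experiment 9 genes had no read, the 8 above and Hoxa13, and 24 passed among 12593 genes. The other 6 of that experiment, Hoxa2, Hoxa4, Hoxa6, Hoxc5, Hoxc11 and Hoxd10, had reads but were not tested. The spans of Hoxa3 and of Hoxa4, Hoxa5 and Hoxa6 overlap in the annotation, as do those of Hoxb3 and Hoxb4, Hoxd3 and Hoxd4, and Hoxd10 and Hoxd11. Hoxa3, Hoxa5 and Hoxa6 lie on the same strand, as do Hoxd3 and Hoxd4, and Hoxd10 and Hoxd11. Counting by strand would not separate the reads of such genes, and reads in any shared stretch may be assigned to either gene. Whether strand was used in counting is not stated in the labels or the table. Reads from antisense transcripts of the clusters may therefore be counted to a Hox gene.

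CDX2 and HNF4A lines were compared with GFP lines to ask which intestinal genes each factor brings up in stomach cells. In both, 0 Hox genes were called by edgeR (adjusted p under 0.05), with or without the library number as a block, 0 by DESeq2, 0 by limma-voom and 0 at an unadjusted p under the same value. For CDX2 the share of all tested genes called was 0.409% by edgeR, 2.74% higher and 1.14% lower by DESeq2, 0.0314% by limma-voom and 11.2% unadjusted. For HNF4A it was 0.142%, 1.55% and 0.189%, 0.0393% and 5.76%. Between the CDX2 and HNF4A lines 0 Hox genes were called or reached that unadjusted p (background 0.0236% and 5.18%). With 1 Hox gene tested, these zeros add little to the counts themselves. Of the 39 genes, 0 had all 3 CDX2 libraries or all 3 HNF4A libraries above all 3 GFP libraries, where 5.72% and 4.71% of all genes in the table did. No Hox gene could, since each had a CDX2 library and an HNF4A library without reads. Hoxa3 had 0, 1 and 0 reads in CDX2, 0, 2 and 0 in HNF4A and 0, 0 and 0 in GFP lines, and Hoxb8, a central gene, 0, 0 and 2 in CDX2 lines and 0 in the others. The groups overlapped for both. Cdx2 itself was at 200, 288 and 62.0 CPM in the CDX2 lines, 3.95, 7.44 and 3.19 CPM in the GFP lines and 50.7, 29.1 and 22.6 CPM in the HNF4A lines. The Hox total of the CDX2 lines was 7 reads over 3 libraries, with Cdx2 transcripts at 62.0 CPM or more in each. In the small intestine organoids Cdx2 was at 282 and 272 CPM.

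Small intestine organoids gave the reference for the gut region in which CDX2 and HNF4A normally act. Anterior and central genes of HoxA and HoxB were higher in both small intestine libraries than in any GFP library for 10 of 39 genes (25.6%): Hoxa2, Hoxa3, Hoxa4, Hoxa5 and Hoxb2 to Hoxb7. The share of all genes in the table that lay above GFP in this way was 21.1%, so the Hox share was near the background. Against HNF4A lines the count was 10 (25.6%, background 17.6%), and against CDX2 lines 11 (28.2%, background 16.7%). These comparisons share the small intestine libraries and are not independent. In the other direction 0 Hox genes lay below all GFP, CDX2 or HNF4A libraries (background 20.1%, 16.2% and 16.7%). None could, since each Hox gene had a library without reads in each of these groups.

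Among the anterior genes Hoxa3, which patterns the pharyngeal region in the embryo, had 23 and 34 reads in small intestine replicates 1 and 2, 0, 0 and 0 in GFP, 0, 1 and 0 in CDX2 and 0, 2 and 0 in HNF4A lines. The small intestine libraries were both above all 9 gastric lines. Hoxa3 was 2.94 ± 1.12 CPM in small intestine (SD, n = 2) and rose against GFP by at least 25.8-fold, taking 3 reads over the GFP group as its limit (edgeR adjusted p = 0.0113, DESeq2 0.00901, with 27.1% of genes called by edgeR and 17.1% called higher by DESeq2). Against CDX2 lines the ratio was 70.6 (95% counting interval 12.2 to 2835; log2 fold change 5.74 ± 1.35 SE; edgeR adjusted p = 0.0363, background 11.3%, and DESeq2 0.0453, background 9.51%). Against HNF4A lines it was 35.6 (9.41 to 301, log2 fold change 4.98 ± 1.26 SE, edgeR adjusted p = 0.0412, background 12.5%). The last call was lost with DESeq2 (adjusted p = 0.0774, background 9.75%), and both the CDX2 and HNF4A calls were lost when only the compared groups were fitted (0.0755 and 0.0629). Hoxa3 had at most 2 reads in any gastric line and passed the filter only through the small intestine libraries, so it could be called only as higher there, and these calls are no support by themselves. Without small intestine replicate 1, which leaves a single library assumed to vary like the other groups, the adjusted p was 0.0501 against GFP, 0.172 against CDX2 and 0.181 against HNF4A lines. The CDX2 call was also lost without CDX2 replicate 1, 2 or 3, HNF4A replicate 2 or small intestine replicate 2, and the HNF4A call without HNF4A replicate 1, 2 or 3, CDX2 replicate 2, GFP replicate 2 or small intestine replicate 2, with adjusted p-values of at most 0.0981 and 0.111.

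The other anterior genes had fewer reads. Hoxb3, a paralog of Hoxa3, had 9 and 19 reads in small intestine against 1 read over all 9 gastric libraries, in CDX2 replicate 1, and was at least 12.7-fold above GFP. Hoxb2 had 8 and 9 reads against 0, at least 7.69-fold above GFP. Hoxa2 had 3 and 5 reads against 0, 0 and 2 in GFP lines. These genes did not pass the filter and were not tested, so their values are counts with no replicate test.

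Central genes, whose products pattern the trunk, followed in small intestine. Hoxb4 had 9 and 13 reads, Hoxb7 6 and 7, and Hoxa4 6 and 5, each against 0 in the 9 gastric lines. Hoxb6 had 17 and 3 reads and Hoxa5, which acts in the mesenchyme of lung and gut, 14 and 6, so the pair of small intestine libraries differed more for these. Hoxb5, a gene of the enteric nervous system, had 5 and 1. The lower bounds of these against GFP ran from 2.71-fold for Hoxb5 to 9.95-fold for Hoxb4. Hoxa7 and Hoxb8 had 4 reads each in replicate 1 and 0 in replicate 2, and Hoxa6 had none.

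Posterior genes and the HoxC and HoxD clusters were nearly without reads in small intestine organoids. Hoxa9, Hoxa10 and Hoxb9 had 3, 1 and 4 reads in replicate 1 and 0 in replicate 2. Posterior genes made up 6.78% of the Hox reads in replicate 1 (exact 95% interval 2.97 to 12.9) and 0.917% in replicate 2 (0.0232 to 5.01). HoxC had 0 reads in both, which allows a share of up to 3.08% and 3.33%, and HoxD had 0 and 4 reads, 3 of Hoxd4 and 1 of Hoxd9. HoxA held 47.5% and 48.6% and HoxB 52.5% and 47.7% of the Hox reads, so the division between these clusters was alike in the pair, with intervals of about the same span (38.2 to 56.9 and 38.9 to 58.4 for HoxA). Intervals cover counting error only, since the reads carry no molecular identifiers.

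**Figure D2:**
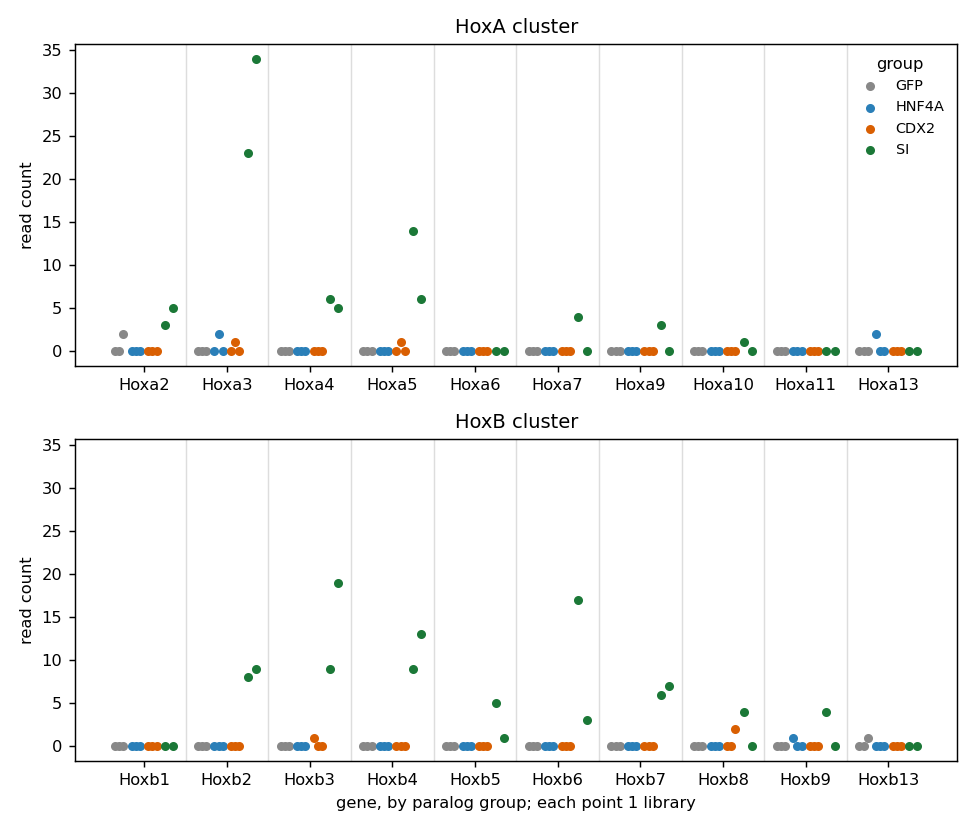
Read counts of HoxA and HoxB genes (x axis, by paralog group) in the first experiment, each point 1 library of the GFP, HNF4A or CDX2 gastric lines or of small intestine organoids (SI). Small intestine points stand above the gastric ones from Hoxa2 to Hoxa5 and from Hoxb2 to Hoxb7, with Hoxa3 at 23 and 34 reads. Posterior genes hold at most 4 reads in any of these libraries.

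Promoter sequence is shown for the Hox gene that was called and for the one richest in a Cdx-type motif, as context for the near absence of Hox reads in CDX2 lines. RefSeq promoters (GRCm38.p6) were at hand for 22 of the 39 genes, 24 promoters in all. TTTAT, the core of the Cdx binding motif, was searched on both strands (ATAAA on the other) in the 250 bases before each start, and no other motif was searched. It was present in 9 of 24 Hox promoters (37.5%), against 37.3% of all 32851 promoters. Hoxb8, a central gene, held 6 matches, a number reached by 129 promoters (0.393%). Hoxd4 came next among the Hox genes with 4, while Hoxa3 and Hoxd9 had none. The Hoxb8 stretch lies inside the annotated Hoxb8 span (chr11:96279401-96285325), before a start within that span. Both sequences run 5′ to 3′ along the gene in lower case, with matches in capitals, for Hoxb8 at chr11:96281655-96281904 on the plus strand and for Hoxa3 at chr6:52213068-52213317 on the minus strand:
Hoxb8: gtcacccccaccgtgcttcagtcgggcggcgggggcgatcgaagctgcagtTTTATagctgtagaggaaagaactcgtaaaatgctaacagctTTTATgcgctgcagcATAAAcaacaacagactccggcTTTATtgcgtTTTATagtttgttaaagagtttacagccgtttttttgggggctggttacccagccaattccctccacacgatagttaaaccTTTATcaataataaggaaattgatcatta
Hoxa3: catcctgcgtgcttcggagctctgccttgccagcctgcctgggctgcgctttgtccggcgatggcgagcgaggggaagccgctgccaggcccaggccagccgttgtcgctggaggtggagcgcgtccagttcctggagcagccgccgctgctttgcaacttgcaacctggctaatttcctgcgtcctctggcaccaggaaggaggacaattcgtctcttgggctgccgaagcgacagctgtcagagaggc
Hoxb8 had 0, 0 and 2 reads in the CDX2 lines, 0 in GFP and HNF4A lines, and 4 and 0 in small intestine organoids. Hoxa3, without a match, was read in both small intestine libraries. A match is a description of letters, and binding was not analysed here.

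Genes whose products act with Hox proteins had enough reads to be tested. The TALE cofactors are homeodomain proteins of the Pbx, Meis and Pknox families that bind DNA together with Hox proteins. Of 9, 8 were tested, and in small intestine against GFP 5 fell and 0 rose by edgeR, among them Meis1, Meis2, Meis3 and Pbx3, where 27.1% of all tested genes were called in either direction, with a median log2 fold change of -1.23 over the 8 against -0.01 over all genes. Meis2 was at 5.87 and 9.22 CPM in small intestine and at 89.5, 97.0 and 82.5 CPM in GFP lines (log2 fold change -3.57 ± 0.23 SE, edgeR adjusted p = 6.2e-05). Pbx3 was at 11.5 and 9.33 CPM against 16.2, 24.1 and 30.8 CPM (log2 fold change -1.19 ± 0.35 SE, edgeR adjusted p = 0.0311). Neither pair of groups overlapped. In CDX2 lines Meis1 was the cofactor that stood out: it was at 0, 1.93 and 0.789 CPM against 9.92, 17.0 and 24.6 CPM in GFP lines and 5.46, 11.9 and 21.1 CPM in HNF4A lines. Its log2 fold change against GFP was -4.25 ± 0.95 (SE), with an edgeR adjusted p of 0.0958, 0.0171 with the library number as a block and 1.46e-04 with DESeq2. In small intestine organoids Meis1 was at 0.0931 and 0 CPM and fell against GFP (edgeR adjusted p = 0.00639). Meis2 in CDX2 lines was at 75.7, 76.5 and 82.4 CPM, and its log2 fold change against GFP of -0.20 ± 0.17 did not pass (edgeR adjusted p = 0.762).

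Evx1, a homeobox gene at the posterior end of HoxA, was the gene beside the clusters with the smallest p in the CDX2 comparison. It had 47, 20 and 2 reads in CDX2 lines, 0, 0 and 0 in GFP, 3, 0 and 0 in HNF4A and 5 and 32 in small intestine organoids. CDX2 libraries differed widely and all lay above the GFP libraries, as did both small intestine libraries. It was at least 25.2-fold above GFP in CDX2 lines (edgeR adjusted p = 0.193, blocked 0.085, DESeq2 0.0132) and at least 16.7-fold above GFP in small intestine (edgeR adjusted p = 0.0376). Evx1 passed the filter only through these libraries in which it is high, so it could be called only as higher than GFP. The HoxA genes next to it, Hoxa10, Hoxa11 and Hoxa13, had 0 reads in CDX2 lines. Of the 12 tested genes beside the clusters, 2 rose and 0 fell in small intestine against GFP, Evx1 and, at the HoxD end, Lnp (log2 fold change 0.83 ± 0.21 SE, edgeR adjusted p = 0.0174), against 27.1% of all tested genes called in either direction.

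**Figure D3:**
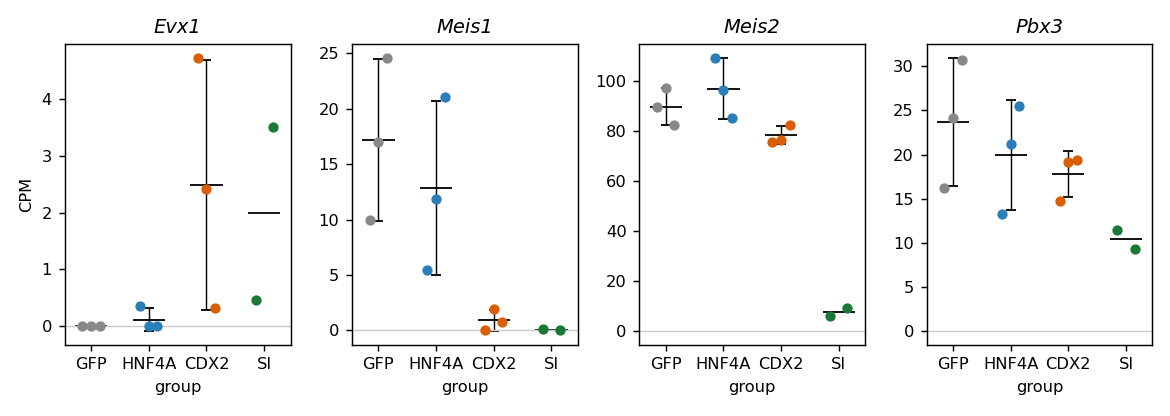
CPM (y axis, a scale for each gene) of Evx1, Meis1, Meis2 and Pbx3 in the first experiment, each point 1 library, with the group mean as a line and the SD as bars for groups of 3. Meis1 is at most 1.93 CPM in CDX2 lines and small intestine (SI), while Meis2 is below 10 CPM in small intestine and at 75.7 CPM or more in the gastric lines.

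Chromatin regulators and the retinoic acid pathway were described for the same comparison, since Polycomb complexes silence Hox clusters, Trithorax complexes keep them active and retinoic acid switches on their anterior ends. By edgeR 27.1% of all tested genes were called in this comparison, and the shares of these lists lay near it. Of 15 Polycomb subunits tested, 2 rose in small intestine against GFP (Suz12, log2 fold change 1.19 ± 0.19, and Ezh2, 1.10 ± 0.23, both of the complex that methylates histone H3) and 2 fell, among them Phc1 (-1.60 ± 0.33). Of 9 Trithorax and MLL genes 2 rose (Wdr5 and Dpy30) and 0 fell. Of 12 retinoic acid genes tested 0 rose and 3 fell, the synthesis enzyme gene Aldh1a1 (-2.36 ± 0.36), the receptor gene Rarg (-1.45 ± 0.22) and Dhrs3, all at edgeR adjusted p-values under the same threshold. The list medians were -0.34, 0.36 and -0.84, against -0.01 for all genes. In the CDX2 and HNF4A lines against GFP 0 genes of these lists were called by edgeR, with 1, 0 and 1 and 0, 0 and 2 at an unadjusted p under 0.05. DESeq2 called 0 of them as well.

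The enhancer deletion was compared with wild type to ask what is lost with this element. Hox genes of all 4 clusters were read in the deletion libraries. In heterozygous organoids 25 of 39 Hox genes (64.1%) were above all 3 wild-type libraries in all 3 libraries, against 6.41% of all genes in the table. In homozygous organoids 16 of 39 (41.0%) were, against 3.55%. In the other direction 0 Hox genes lay below wild type in either (background 4.29% and 3.14%). None could, since wild-type replicate 2 had 0 Hox reads. The 2 comparisons share the wild-type libraries. The same 16 genes lay above wild type in all 6 deletion libraries (background 1.98%). In the 3 deletion libraries left without those highest in Wnt3a, 16 did so (background 2.97%). These 3 are part of the 6, so that count could not be lower.

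The spread between deletion libraries was large, and edgeR called 0 Hox genes and 0 genes in all in both comparisons. In the heterozygous comparison 24 of 24 tested Hox genes had an unadjusted p under 0.05 (8.93% of all tested genes), DESeq2 called 20 (background 2.49%) and limma-voom 0 (0%). Its edgeR adjusted p-values were 0.457 to 0.511. In the homozygous comparison 22 had an unadjusted p under 0.05 (background 4.59%), DESeq2 called 14 (background 1.18%) and limma-voom 0 (0%). Its edgeR adjusted p-values were 0.877 to 0.999. The tested genes had at most 3 reads in any wild-type library and passed the filter only through the deletion libraries, so these counts had to be high and are no support by themselves. The 3 libraries highest in Wnt3a were also the 3 highest in summed Hox CPM. Leaving them out thus takes away the highest Hox values of both genotypes, and fewer calls without them are no separate result. Without the 3 libraries highest in Wnt3a, DESeq2 called 1 Hox gene in each comparison, Hoxb9 (adjusted p = 0.00764 and 0.0073), and edgeR 0, with 1 heterozygous library left that is assumed to vary like the other groups.

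The posterior genes of all 4 clusters had reads in the deletion libraries. Hoxb9, which patterns the thorax and lies at the posterior side of HoxB, had 61, 713 and 576 reads in heterozygous, 16, 60 and 504 in homozygous and 1, 0 and 1 in wild-type libraries. All 6 deletion libraries were above wild type, and within each genotype the lowest was replicate 1. The mean was 44.2 ± 32.8 CPM in heterozygous and 22.1 ± 32.0 CPM in homozygous organoids, against 0.0724 ± 0.0654 CPM (SD, n = 3 each). The ratio to wild type was 613 (95% counting interval 169 to 5063) for heterozygous and 274 (75.6 to 2270) for homozygous organoids, with log2 fold changes of 9.002 ± 1.97 and 7.998 ± 1.97 (SE) and DESeq2 adjusted p-values of 6.22e-05 and 9.17e-04. Hoxd9 had 13, 113 and 333 reads in heterozygous, 14, 9 and 88 in homozygous and 0, 0 and 1 in wild-type libraries, again without overlap. Its ratio was 417 (74.4 to 16489) and 105 (18.5 to 4183), with DESeq2 adjusted p-values of 8.55e-05 and 0.00748. Hoxc9 had 8, 58 and 99 reads in heterozygous and 4, 5 and 53 in homozygous libraries against 0 in wild type, at least 49.9-fold and 19.5-fold higher.

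Group 10 genes, which act at the lumbar and limb level, were present too. Hoxa10 had 16, 175 and 203 reads in heterozygous and 2, 15 and 163 in homozygous libraries against 3, 0 and 0 in wild type, so homozygous replicate 1 overlapped with wild type. Hoxc10 had 10, 131 and 178 and then 1, 5 and 156 against 0, and Hoxa9 7, 137 and 181 and then 1, 12 and 106 against 3, 0 and 0. Beyond group 10 reads were few. Hoxb13, a gene of the hindgut and tail end, had 2, 30 and 43 reads in heterozygous and 0, 4 and 31 in homozygous libraries, Hoxc11 had 4 reads in heterozygous replicate 3 alone, and groups 11 to 13 of HoxA and HoxD had 0 reads in these 9 libraries.

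Central genes were the next group. Hoxc8 had 19, 174 and 150 reads in heterozygous and 7, 20 and 155 in homozygous libraries against 0, 0 and 0 in wild type, at least 104-fold and 57.4-fold higher (DESeq2 adjusted p = 3.5e-05 and 4.09e-04). Hoxd8 had 8, 98 and 281 and then 10, 13 and 69 against 0, at least 117-fold and 29.0-fold higher. Hoxb8 had 9, 97 and 142 and then 3, 14 and 106, and Hoxb7 7, 75 and 61 and then 6, 8 and 78, with 0 in wild type for both. All of these were above wild type in all 6 deletion libraries. Hoxc5 and Hoxa6 stayed low, with at most 13 and 8 reads.

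Anterior genes had reads in HoxA, HoxB and HoxD. Hoxb2, a gene of the hindbrain and neck region, had 10, 105 and 101 reads in heterozygous and 7, 13 and 82 in homozygous libraries against 0 in wild type, at least 65.3-fold and 32.2-fold higher. Hoxa3, the gene called in small intestine, had 2, 36 and 47 and then 2, 13 and 72 against 0, at least 25.7-fold and 27.4-fold higher. Hoxb3 had 6, 93 and 99 and then 1, 13 and 103 reads against 0, at least 59.9-fold and 36.9-fold higher, and Hoxd3 2, 21 and 44 and then 1, 5 and 31 against 0. Hoxb1 and Hoxd1 had 0 reads throughout.

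Heterozygous and homozygous libraries were then set against each other, which asks whether a second deleted copy adds to the first. 0 of 24 tested Hox genes were called by edgeR, DESeq2 or limma-voom (background 0%, 0.00795% lower by DESeq2), 0 had an unadjusted p under 0.05 (background 0.262%), and 0 of 39 were without overlap in either direction (background 1.28% lower and 0.76% higher). Log2 fold changes were negative for 22 of 24, with a median of -0.83 against -0.01 for all genes, and ran from -1.996 ± 1.28 (SE) for Hoxd8 and -1.96 ± 1.18 for Hoxd9 to 0.38 ± 1.26 for Hoxa7, at an edgeR adjusted p of 1. These errors allow differences of several-fold either way, and the p-values do not show that the genotypes are alike. Without the 3 libraries highest in Wnt3a the value of Hoxd8 turned to 0.43 (edgeR adjusted p = 0.934).

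The Hox level differed more between libraries of a genotype than between the genotype means. Summed Hox CPM was 23.6, 201 and 341 in heterozygous replicates 1, 2 and 3 and 9.06, 23.4 and 265 in homozygous replicates 1, 2 and 3, and the order of the 6 libraries by Wnt3a was the same but for heterozygous 1 and homozygous 2, which change places. For every 100 Wnt3a reads there were 13.4, 11.1 and 10.99 Hox reads in the heterozygous and 9.52, 11.9 and 12.9 in the homozygous libraries. This is a description over 6 libraries, each ratio taken within a library, with no test. Of 4 niche ligands that organoid medium supplies, Wnt3a, Rspo3 and Nog were above wild type in all 6 deletion libraries, as were 1.98% of all genes in the table. Of 14 fibroblast and mesenchyme markers 7 were (Col1a1, Col3a1, Col6a3, Pdgfra, Pdgfrb, Sparc and Vim). The summed level of that list without Fn1, which is abundant in all gastric libraries, was 5.85 to 7.82 CPM in wild type, 114 to 1394 CPM in heterozygous and 39.3 to 1202 CPM in homozygous libraries. Lum was at 0 in all 9 libraries, and Dcn, Acta2 and Thy1 were at most 0.602, 0.602 and 0.114 CPM. Of 6 endothelial markers 1 was above wild type in all 6 libraries (Eng), and their sum was 1.40 to 2.16 CPM in wild type, 5.24 to 48.7 CPM in heterozygous and 4.08 to 35.1 CPM in homozygous libraries. Of 5 smooth muscle markers, 6 immune markers and 6 neuron and glia markers 0 were above wild type in all 6 libraries. Epithelial markers summed to 6504 to 10045 CPM in wild type and 3812 to 6853 CPM in the deletion libraries. The part of these transcripts in the Hox result was not tested. In the 3 deletion libraries lowest in Wnt3a, at 95.1 to 196 CPM, the Hox genes had 91, 225 and 240 reads against at most 10 in wild type, where Wnt3a was at most 4.33 CPM.

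**Figure D4:**
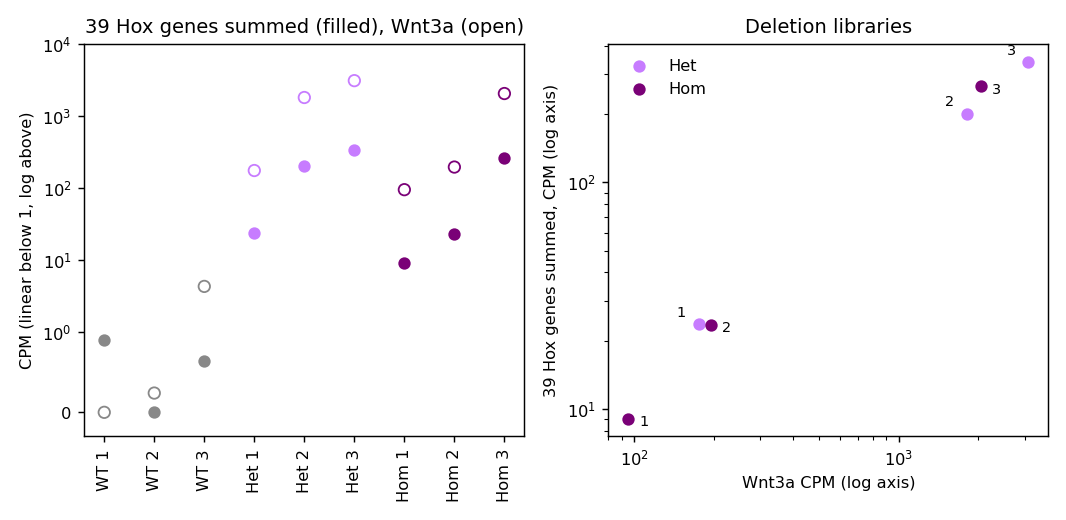
Left, the summed CPM of the 39 Hox genes (filled) and Wnt3a CPM (open) in the 9 libraries of the deletion experiment, on an axis that is linear below 1 and logarithmic above; right, the same values for the 6 deletion libraries on log axes, numbered by replicate. Heterozygous (Het) 2 and 3 and homozygous (Hom) 3 are high in both, and wild-type (WT) libraries are at or below 0.899 CPM for Hox.

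The deletion libraries also differed in which cluster their Hox reads came from. HoxB held 51.6%, 51.7% and 39.5% of the Hox reads in heterozygous replicates 1, 2 and 3 and 36.3%, 52.5% and 47.7% in homozygous replicates 1, 2 and 3, while HoxC held 14.6% to 21.3% in all 6. HoxD made up 24.3% in heterozygous replicate 3 (exact 95% interval 22.8 to 25.9) and 30.8% in homozygous replicate 1 (21.5 to 41.3), against 10.4% to 12.9% in the other 4, whose intervals reached at most 18.0. Hoxd8 and Hoxd9 gave 281 and 333 of the 730 HoxD reads of heterozygous replicate 3, and 10 and 14 of the 28 of homozygous replicate 1. Each of these 2 libraries belongs to another genotype and they lie at opposite ends of the range of Hox reads. Posterior genes gave 52.0%, 57.6% and 53.9% of the Hox reads in heterozygous and 41.8%, 45.8% and 48.6% in homozygous libraries, without overlap of these values. Exact 95% intervals were 45.3 to 58.7, 55.6 to 59.6 and 52.1 to 55.7 in heterozygous libraries. In homozygous libraries they were 31.5 to 52.6, 39.4 to 52.4 and 46.6 to 50.7. The intervals of heterozygous replicates 1 and 3 thus overlapped with homozygous ones, and that of replicate 2 did not. No test is given for these shares, which sum over the genes described. In the small intestine organoids of the other experiment the share of HoxC and HoxD together was 0% and 3.67%, against 25.8% to 51.6% here. Those libraries were fitted separately and the values stand side by side without a test.

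**Figure D5:**
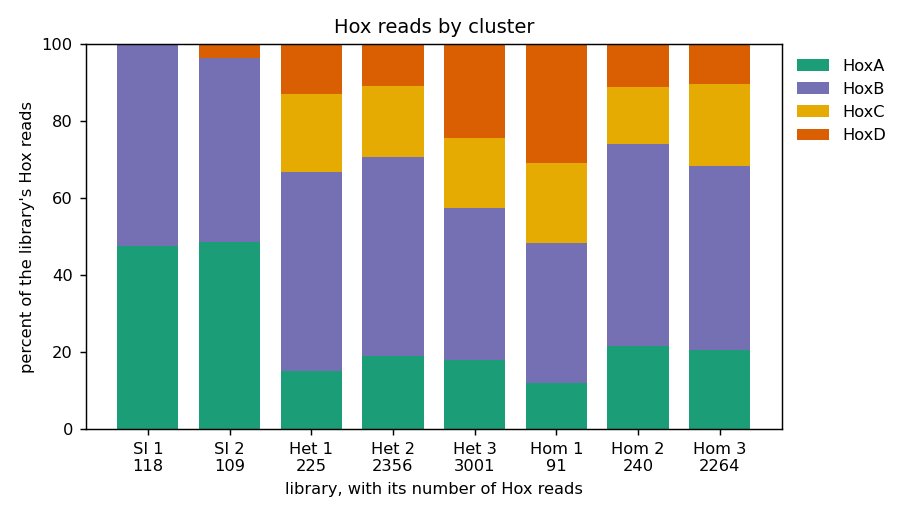
Percent of a library's Hox reads from HoxA, HoxB, HoxC and HoxD in the small intestine organoids (SI) and the heterozygous (Het) and homozygous (Hom) deletion libraries, with the number of Hox reads under each bar. Small intestine bars hold almost only HoxA and HoxB, and HoxD is widest in Het 3 (24.3%) and Hom 1 (30.8%).

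The genes that work with or upon Hox genes were compared in the same way. TALE cofactors, Polycomb subunits, Trithorax and MLL genes, the retinoic acid pathway and the genes beside the clusters had 0 genes called by edgeR in either comparison with wild type. At an unadjusted p under 0.05 they had 0, 4, 1, 1 and 2 of 8, 15, 9, 12 and 11 tested in heterozygous (background 8.93%) and 0, 1, 0, 2 and 2 in homozygous organoids (background 4.59%). DESeq2 called 1 over all these lists and both comparisons, Tax1bp1, which was lower in homozygous organoids. The share of all tested genes that DESeq2 called lower is not given here, so this call is not read as a result. Of these lists together, Phc1 and Crabp2 were the genes above wild type in all 6 deletion libraries. They were 1 of 15 Polycomb subunits and 1 of 16 retinoic acid genes. The TALE cofactors, the Trithorax and MLL genes and the genes beside the clusters had 0. Of all genes counted, 1.98% lay above wild type in this way, so counts this small may be background. Crabp2, which carries retinoic acid to its receptor, was at 16.03, 114 and 121 CPM in heterozygous, 5.47, 13.1 and 134 CPM in homozygous and 0, 0 and 0.891 CPM in wild-type libraries. Its log2 fold changes were 8.25 ± 1.79 and 7.52 ± 1.78 (SE; edgeR adjusted p = 0.457 and 0.877), and its highest libraries were those highest in Hox reads. Meis1 was at 11.4, 17.1 and 10.6 CPM in wild type, 12.9, 15.1 and 22.4 CPM in heterozygous and 13.4, 9.65 and 18.3 CPM in homozygous libraries, with overlap. Evx1 had 3 reads in wild-type replicate 3 and 0 in the 6 deletion libraries, and the HoxA genes nearest to it, Hoxa11 and Hoxa13, had 0 reads in all 9 libraries.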

How the data were processed

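RNA was measured by poly-A selected, paired-end sequencing, per the labels' protocols. Values are the count of reads per gene as deposited, made by the authors with STAR, per the file's name. The submitters' processing notes for the RNA samples name mouse build mm10 and also human build hg19. Counter, annotation and filters were not stated.

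Groups follow the titles. Each experiment was fitted alone with edgeR 4.0.16 in R 4.3.3 (TMM, filterByExpr at 10 counts and 15 in total, robust quasi-likelihood F tests, two-sided, Benjamini-Hochberg over all tested genes), with genes called at an adjusted p under 0.05. A standard error is the fitted change over the root of its F. DESeq2 1.42.0, limma 3.58.1 (voom), other scaling, no filter, a library-number block, compared groups alone and leaving out each library were alternatives. Leaving out the 3 deletion libraries highest in Wnt3a was added after seeing the data. Scripts were tested on simulated data.

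Fold bounds set a group at 0 to 3 counts, and ratios carry exact 95% counting intervals. Named members were those called and, up to 6 a comparison, those with the smallest p, with further members given for a fuller account. Other genes come from fixed lists, at most 4 of a list per comparison by smallest p, and from markers. Results of a few genes are not reported here. The members and lists were chosen with earlier results of these data known. Same-numbered gastric lines deviated together (9 pairs, r 0.363 to 0.785), so numbers pair those groups. Same-numbered heterozygous and homozygous libraries had r of 0.246 to 0.517 (3 pairs). Wild-type replicate 1 and heterozygous replicate 2, of different numbers, had 0.481, so pairing of the deletion groups is not settled.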

Additional observations from a re-analysis of the deposited data

How the results depend on the processing

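Over the 9 counts of called Hox genes, 138 alternative values stayed near the reported ones, 7 were higher and 17 lower. Most of the reported counts were 0 and the first experiment tested 1 Hox gene, so an unchanged count says little. In small intestine against GFP lines 3 Hox genes were called with no low-count filter, against 1 with it, and 0 to 1 when a library was left out. Against CDX2 lines 0 were called with the compared groups only, and 0 to 1 when a library was left out. Against HNF4A lines 0 were called with DESeq2, 0 with the compared groups only, 2 with no low-count filter, and 0 to 1 when a library was left out. With enhancer deletion DESeq2 called 20 Hox genes in heterozygous and 14 in homozygous organoids, and 1 in each without the 3 deletion libraries highest in Wnt3a, where 12 Hox genes were tested. The cause of these differences was not tested, except that the filter sets how many Hox genes are tested. The 3 libraries left out were also the 3 highest in summed Hox CPM. With the replicate number as a block 2 Hox genes were called in heterozygous organoids against wild type, Hoxb9 (edgeR adjusted p = 0.0241) and Hoxd9 (0.0278). Pairs with wild-type libraries had correlations of -0.336 to 0.264, and pairs with small intestine of -0.144 to 0.121, so those groups share only a number. The block changed no other Hox call. Hoxd8 in homozygous against heterozygous organoids turned from -1.996 to 0.4325 with edgeR (adjusted p = 0.934) and 0.4324 with DESeq2 (0.996) without those 3 libraries, and the cause was not tested. Depth limits the first experiment: 38 of 39 Hox genes were under the filter there, and a gene at 0 may lie anywhere up to 0.256 to 0.473 CPM over the 20 libraries.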

Other observations

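Single reads of posterior Hox genes appeared in gastric lines as well: Hoxa13 had 2 reads and Hoxb9 1 read in HNF4A replicate 1, and Hoxb13 had 1 read in GFP replicate 3. Hoxc6 and Hoxc8 had 1 read each in that GFP library, which held 10 of the 11 Hox reads of its group. In wild-type replicate 1 of the deletion experiment Hoxa7, Hoxa9 and Hoxa10 had 2, 3 and 3 reads, while Wnt3a had 0 reads there, and in wild-type replicate 3, with 34 Wnt3a reads, the Hox genes had 5. Hoxc11 (4 reads) and Hoxd10 (1 read) were read in heterozygous replicate 3 alone.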
